A study of Mus musculus with 12 samples.

Results

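The genes described here are 10 members of the BCL2 family, the group of proteins that decides at the mitochondrial surface whether a cell enters apoptosis. They were chosen by symbol and not by level: Bcl2, Bcl2l1, Mcl1, Bax, Bak1, Bid, Bcl2l11, Bbc3, Pmaip1 and Bmf, which are 10 of the 21611 genes of the table. All 10 passed the filter on low counts and are among the 15452 genes tested, but Pmaip1 passed only through the E13.5 libraries.

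The study compared mRNA-seq of primary endothelial cells (ECs) cultured from the cortex of wild-type C57BL/6 J mice, to ask how genes of the blood-brain barrier change from the embryo to the adult and after Wnt or histone deacetylase manipulation. The groups were E13.5 cultures (n = 3), adult control cultures (n = 3), adult cultures treated with the ligand Wnt3a (n = 2) and adult cultures treated with 10 µM MS-275 (n = 4), an inhibitor of class I histone deacetylases (HDACs). Treatments lasted 48 h per the methods, the Wnt3a dose reads 200 nM in the labels and 200 ng/ml in the methods, and cultures were used at passage 2. Adult mice were males of 2 to 3 months in the methods and 3 to 4 months elsewhere in the study, cells of 1 litter were pooled as a replicate, and the purity given for the cultures is over 90%. The MS-275 libraries are titled MS-257 but labelled as treated with MS-275, and the methods count 2 replicates where the labels give 4.

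Anti-apoptotic members (Bcl2, Bcl2l1, which encodes BCL-XL, and Mcl1) hold the pore-forming effectors BAX and BAK in check. The BH3-only members (Bid, Bcl2l11 or BIM, Bbc3 or PUMA, Pmaip1 or NOXA, and Bmf) sense stress and either block the anti-apoptotic proteins or engage the effectors directly. Much of this control lies in protein binding and turnover, which mRNA does not show, and in ECs growth factor signalling is known to restrain BIM.

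The E13.5 libraries went against their EC label. The summed normalized count of 12 endothelial markers was 914 to 1402 in the E13.5 libraries, against 243360 to 326235 in adult control, 193934 to 240157 after Wnt3a and 19780 to 35473 after MS-275. Cldn5, which encodes the main claudin of brain endothelium, was at 0 to 3.18 in E13.5, and Sox2, a neural progenitor gene, was at 4052 to 4878 there and at 0 in all 9 adult libraries. The whole neural progenitor list of 10 genes did not separate the groups by its sum, which was 147028 to 150459 in E13.5 and 117104 to 158612 in adult control, because Vim, at 106110 to 151060 in adult control, makes up most of it. Pericyte and smooth muscle markers summed to 32205 to 51601 in E13.5 and 86.7 to 116 in adult control, and neuronal markers to 8429 to 11577 and 3.47 to 4.07. After MS-275 the last 2 lists were at 716 to 956 and 667 to 736, sums that came mostly from part of each list. Of the macrophage markers, Cd68 was at 7456 to 14834 in adult control while Ptprc was at 0 to 1.97. In bulk RNA, fewer cells of a type and less RNA per cell cannot be told apart. The libraries held 20804279 to 33149580 reads on genes. Adult control replicate 3, Wnt3a replicate 2 and MS-275 replicates 2 and 4 deviated from their group means in one direction and the other adult libraries in the other, along a component that held 45.9% of the variance of those deviations. The first of these are called set a and the others set b below. Nothing in the labels names such a batch, so within-set values are given beside the main results that rest on the adult libraries.

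The promoters of Bax, Bak1 and Bmf are shown because these 3 genes moved most after MS-275, 2 of them down and 1 up. Each is the RefSeq window from 250 bases before to 50 after the start site on GRCm38.p6, and the capitals mark the GC box, GGGCGG or its reverse complement CCGCCC, which SP-family factors are known to bind. The Bax window lies on the minus strand at chr7:45466849-45467148.
Bax: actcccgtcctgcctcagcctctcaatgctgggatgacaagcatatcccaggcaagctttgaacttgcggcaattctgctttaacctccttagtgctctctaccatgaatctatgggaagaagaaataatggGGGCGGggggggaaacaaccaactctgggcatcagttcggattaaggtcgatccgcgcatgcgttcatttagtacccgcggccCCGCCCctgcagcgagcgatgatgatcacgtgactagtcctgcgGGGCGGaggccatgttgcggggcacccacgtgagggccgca
The Bak1 window lies on the minus strand at chr17:27028578-27028877. Its start site is 382 bases from the 5′ end of the gene in GENCODE M21, inside the gene, and the window does not reach that end.
Bak1: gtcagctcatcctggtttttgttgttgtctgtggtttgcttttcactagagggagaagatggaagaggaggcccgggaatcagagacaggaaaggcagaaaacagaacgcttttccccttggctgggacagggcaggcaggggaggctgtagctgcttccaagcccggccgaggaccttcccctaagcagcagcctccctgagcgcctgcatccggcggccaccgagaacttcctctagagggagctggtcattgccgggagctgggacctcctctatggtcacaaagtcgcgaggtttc
Of the 3 Bmf windows, the one printed lies on the minus strand at chr2:118549637-118549936, 1 base from the 5′ end of the gene in GENCODE M21.
Bmf: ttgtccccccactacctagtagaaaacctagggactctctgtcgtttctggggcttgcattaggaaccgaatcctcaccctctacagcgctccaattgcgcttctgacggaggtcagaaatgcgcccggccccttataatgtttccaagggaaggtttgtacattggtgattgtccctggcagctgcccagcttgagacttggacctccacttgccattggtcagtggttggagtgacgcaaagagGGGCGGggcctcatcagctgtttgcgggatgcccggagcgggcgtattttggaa
The window of Bax held 3 GC boxes, that of Bak1 0 and that of Bmf 1, while the other 2 Bmf windows held 0. Among 32851 mouse promoters of this length, 35.7% held at least 1. The 9 members with a window used here also included Bcl2 with 7 GC boxes, Bid with 3, Mcl1 with 1, Bcl2l11 with 3 in each of 2 windows, Bbc3 with 5, 4 and 7, and Bcl2l1 with 0 in each of 3. GC boxes stood in windows of members called and of members not called after MS-275, and their part in the changes was not tested. The CCAAT motif occurred 3 times in the Bmf window and not in those of Bax and Bak1, against 37.4% of promoters with at least 1, counting CCAAT and ATTGG. The windows of the 2 effector genes differed in GC boxes and both lacked the CCAAT motif, but that of Bak1 starts inside the annotated gene.

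All 4 comparisons came from one limma fit on log2(normalized count + 1) over the 12 libraries, and a gene was called higher or lower at a Benjamini-Hochberg adjusted p under 0.05. A normalized count is the number of reads on the gene divided by a size factor of the library. The comparisons share libraries: adult control enters 3 of them, and E13.5 and MS-275 enter 2 each. Between adult control and E13.5, 4 members were higher in the adult (Bcl2, Mcl1, Bak1 and Bid) and 1 was lower (Pmaip1, which passed the filter through E13.5 alone), where 19.5% of all genes tested were higher and 32.8% lower. Of all genes called there, 37.3% were higher, but 55.7% were under quantile normalization. MS-275 against adult control gave 1 higher member (Bmf) and 4 lower (Bcl2, Bcl2l1, Bax and Bak1), where 30.3% of all genes were higher and 22.7% lower. For MS-275 against E13.5, 3 were higher (Mcl1, Bid and Bmf) and 4 lower (Bcl2l1, Bax, Bak1 and Pmaip1), beside 27.2% and 36.1% of all genes, and the share of higher calls was 43.0%, or 56.5% under quantile normalization. Wnt3a against adult control gave 0 called members, and the share of all genes called was 0%. The median log2 fold change of the 10 members was 0.30 between adult and E13.5 (all genes −0.20), −0.25 after MS-275 (all genes 0.19), −0.57 between MS-275 and E13.5 (all genes −0.14) and −0.28 after Wnt3a (all genes 0.00).

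**Figure D1:**
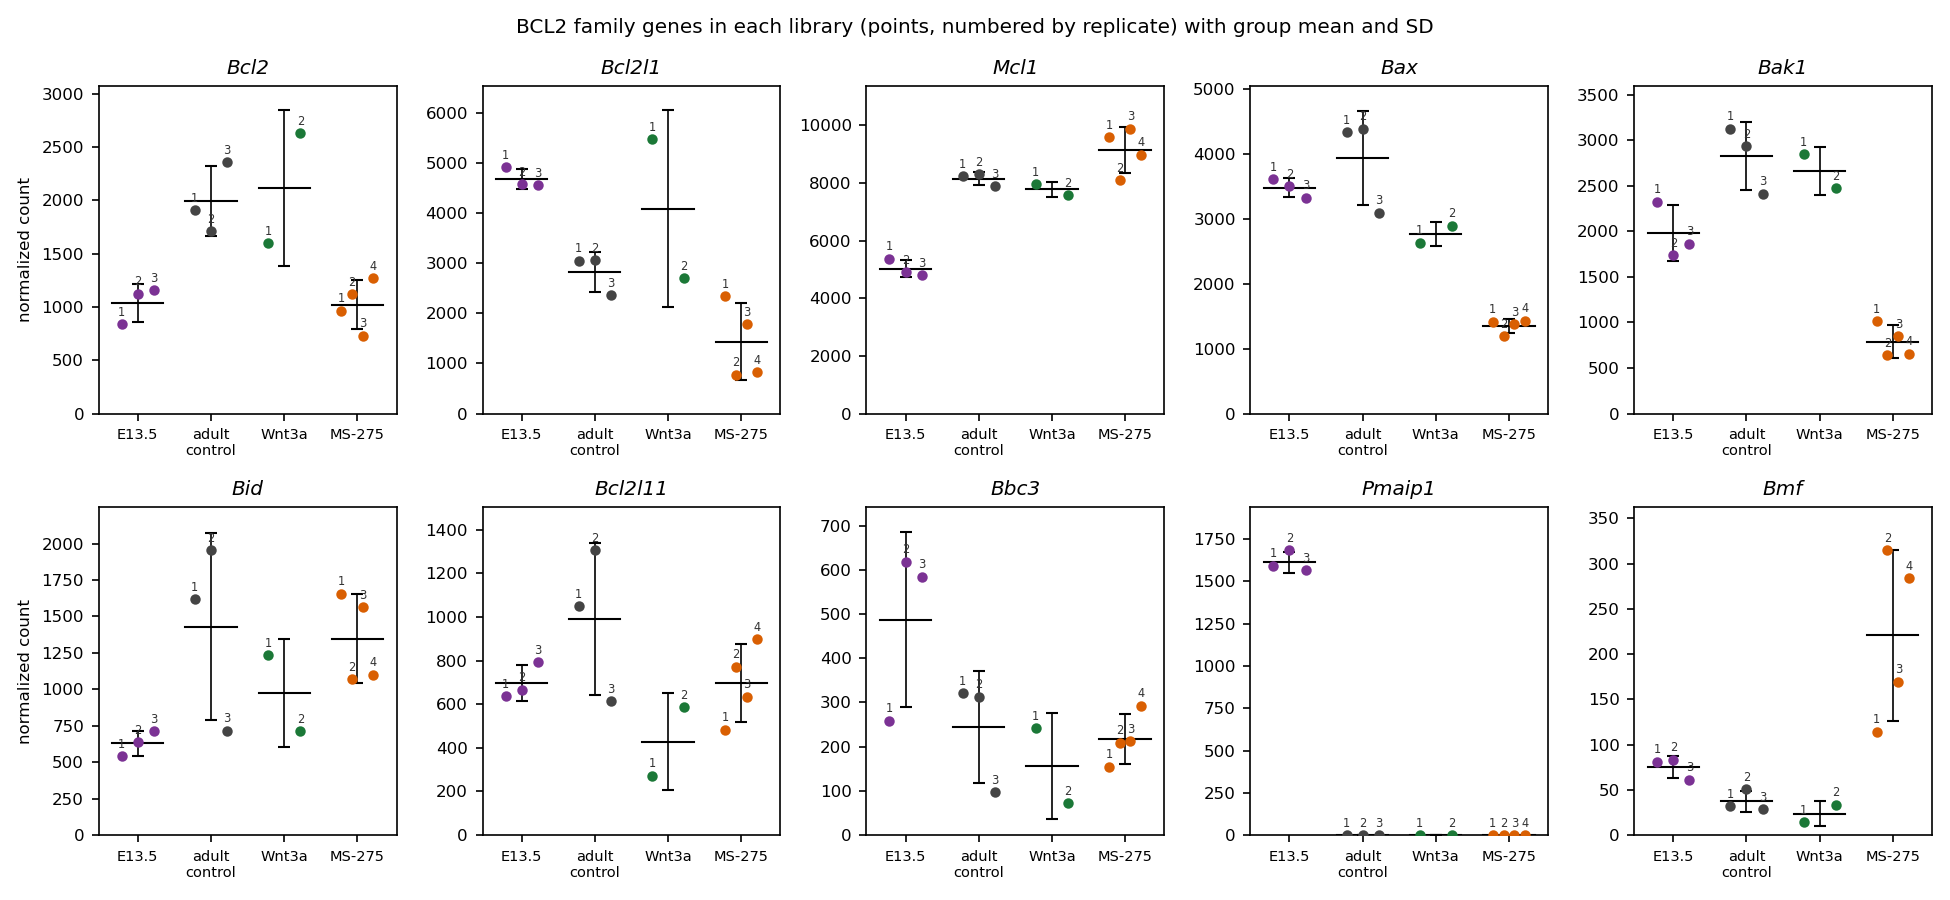
Normalized count (vertical axis, linear, from 0, scaled per gene) of each member in each library. Points are libraries numbered by replicate, lines are group means and bars ±1 SD. Bax and Bak1 are lowest in the 4 MS-275 libraries, Bmf is highest there, and Pmaip1 is above 0 only in E13.5.

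Among the anti-apoptotic members, Bcl2 (minus strand, chr1:106538178-106714274, mm10) encodes the protein that gave the family its name. Its normalized count was 836, 1126 and 1155 in the E13.5 libraries and 1910, 1714 and 2361 in adult control. After MS-275 it was 966, 1119, 732 and 1268, and after Wnt3a 1599 and 2632. The 3 adult control libraries lay above every E13.5 and every MS-275 library, while the Wnt3a libraries straddled the adult control range. The adult control mean of 1995 ± 332 (SD, n = 3) was 1.92-fold the E13.5 mean of 1039 ± 176 (SD, n = 3), a log2 fold change of 0.94 ± 0.25 (SE, limma adjusted p = 0.00819). After MS-275 the mean was 1021 ± 229 (SD, n = 4), and the log2 fold change against adult control was −0.98 ± 0.23 (SE, limma adjusted p = 0.00458). Within set a the difference was −0.99 and within set b −1.10. When libraries that were close to each other were averaged and counted once, this call was lost (limma adjusted p = 0.0633). MS-275 and E13.5 differed by −0.04 ± 0.23 (SE) on the log2 scale, which passed no threshold (limma adjusted p = 0.895).

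Bcl2l1 (minus strand, chr2:152780668-152831728) encodes BCL-XL, the anti-apoptotic protein that protects many long-lived cells, and a short pro-apoptotic splice form. The counts are per gene and do not separate the forms. The normalized count was 4921, 4583 and 4557 in E13.5, 3057, 3063 and 2368 in adult control, 5485 and 2704 after Wnt3a, and 2346, 779, 1788 and 825 after MS-275. Every adult control library was below every E13.5 library and above every MS-275 library, although MS-275 replicate 1 and adult control replicate 3 lay close together. The adult control mean was 2829 ± 399 (SD, n = 3) and the E13.5 mean 4687 ± 203 (SD, n = 3), and the log2 difference of −0.74 ± 0.40 (SE) was not called (limma adjusted p = 0.15). With only those groups in the fit the same difference passed (limma adjusted p = 0.00566), a fit into which the spread of the treated libraries does not enter. It also passed with library set as a factor, at −0.99 (limma adjusted p = 0.00677). The sets were drawn from the spread of these same data, so this fit gives no separate support. The E13.5 libraries scored only −0.038, 0.019 and 0.019 on the component that defines the sets and were assigned by sign.

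After MS-275, Bcl2l1 averaged 1435 ± 766 (SD, n = 4), a log2 fold change of −1.13 ± 0.38 against adult control (SE, limma adjusted p = 0.0264). This call depended on single libraries: without adult control replicate 1 or 2, or without MS-275 replicate 2 or 4, the value was −1.07, −1.07, −0.89 and −0.92, with limma adjusted p = 0.0778, 0.0758, 0.0691 and 0.071. MS-275 replicates 2 and 4 alone gave −1.81, and replicates 1 and 3 alone gave −0.46 (limma adjusted p = 0.225). Within set a the difference was −1.56 and within set b −0.58. Against E13.5 the MS-275 libraries were lower by a log2 fold change of −1.87 ± 0.38 (SE, limma adjusted p = 0.00125). The 2 Wnt3a libraries differed 2.03-fold from each other, and the group differed from adult control by 0.45 ± 0.45 (SE, limma adjusted p = 0.781).

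Mcl1 (plus strand, chr3:95658788-95663176) encodes a short-lived anti-apoptotic protein that is destroyed quickly when survival signals stop. Its normalized count was 5371, 4901 and 4803 in E13.5 and 8231, 8303 and 7883 in adult control. It was 7963 and 7584 after Wnt3a and 9591, 8107, 9882 and 8985 after MS-275. All 9 adult libraries lay above the 3 E13.5 libraries, and the highest adult control library was only 1.05 times the lowest, the smallest such ratio among the 9 members detected there. Mcl1 was higher in adult control than in E13.5 by a log2 fold change of 0.70 ± 0.12 (SE, limma adjusted p = 0.000425), with means of 8139 ± 225 and 5025 ± 304 (SD, n = 3 each). After MS-275 the mean was 9141 ± 784 (SD, n = 4), and the difference from adult control of 0.16 ± 0.11 (SE) was not called (limma adjusted p = 0.231). Of the 3 anti-apoptotic members, Mcl1 was thus the one not called after MS-275. Against E13.5 it was 0.86 ± 0.11 (SE) higher on the log2 scale (limma adjusted p = 4.47e-05).

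The effectors Bax and Bak1 encode the proteins that assemble into pores in the outer mitochondrial membrane and release cytochrome c. Bax (minus strand, chr7:45461697-45466898) was at 3610, 3506 and 3325 in E13.5, 4332, 4389 and 3096 in adult control, 2633 and 2895 after Wnt3a, and 1414, 1192, 1377 and 1429 after MS-275. The 4 MS-275 libraries lay below each of the other 8. The MS-275 mean was 1353 ± 109 (SD, n = 4) against 3939 ± 731 (SD, n = 3) in adult control, that is 2.91-fold lower, with a log2 fold change of −1.53 ± 0.14 (SE, limma adjusted p = 1.16e-05). It held in all 22 alternatives tried, with values from −1.69 to −1.44, and was −1.25 within set a and −1.64 within set b. Against E13.5 the log2 fold change was −1.36 ± 0.14 (SE, limma adjusted p = 1.07e-05). Adult control and E13.5 overlapped and differed by 0.16 ± 0.15 (SE, limma adjusted p = 0.406). Without adult control replicate 3, the lowest of its group, that difference was 0.33 and passed (limma adjusted p = 0.0412). Part of Bax lies under Gm45808, an annotated protein-coding gene on the same strand, so reads there could be counted for either.

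Bak1 (minus strand, chr17:27019810-27029009) was at 2324, 1741 and 1864 in E13.5, 3125, 2937 and 2411 in adult control, 2844 and 2475 after Wnt3a, and 1015, 643, 847 and 655 after MS-275. The MS-275 libraries were again the 4 lowest of the 12. Their mean of 790 ± 177 (SD, n = 4) was 3.58-fold below the adult control mean of 2824 ± 370 (SD, n = 3), with a log2 fold change of −1.85 ± 0.19 (SE, limma adjusted p = 1.82e-05). Both sets of libraries gave a like difference, −1.89 in set a and −1.71 in set b. Against E13.5 the difference was −1.34 ± 0.19 (SE, limma adjusted p = 9.26e-05). In the adult control libraries Bak1 was higher than in E13.5 by 0.52 ± 0.20 (SE), which was barely past the threshold (limma adjusted p = 0.0489). That call was lost without E13.5 replicate 2 or 3 or adult control replicate 1 or 2 (limma adjusted p = 0.16, 0.129, 0.151 and 0.119). Ggnbp1 overlaps Bak1 on the opposite strand, and no source used here says whether the authors' counting used strand.

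**Figure D2:**
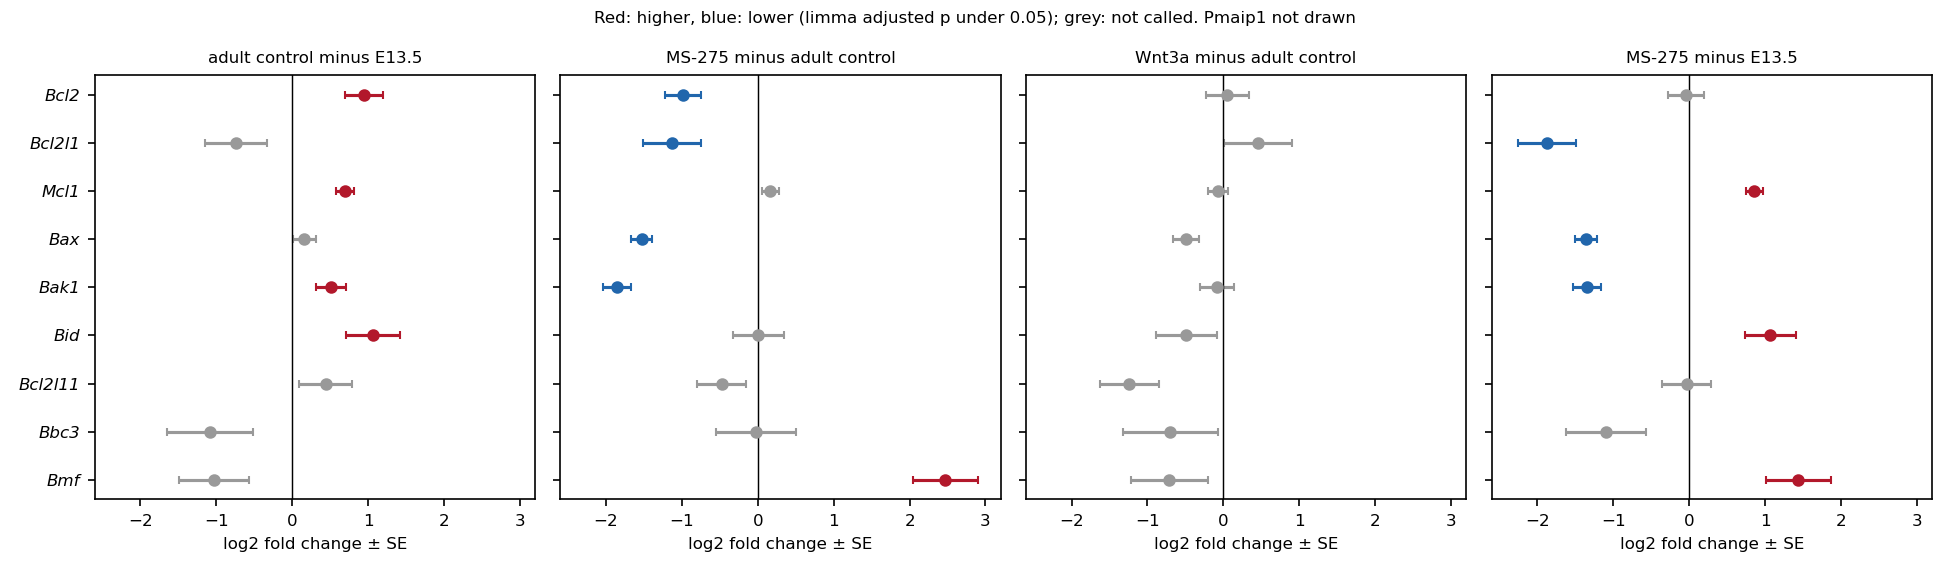
Log2 fold change (horizontal axis) with its standard error from limma for 9 members in each comparison, with Pmaip1 left out because its fitted value is set by the pseudocount. Red points were called higher and blue points lower at an adjusted p under 0.05, and grey points were not called. Bax and Bak1 are on the lower side and Bmf on the higher side in both MS-275 panels, and no point is coloured for Wnt3a.

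The BH3-only members moved less uniformly. Bid (minus strand, chr6:120891930-120916853), whose product is cut by caspase-8 and carries death receptor signals to mitochondria, was at 543, 636 and 714 in E13.5 and 1620, 1954 and 717 in adult control. After Wnt3a it was at 1235 and 713, and after MS-275 at 1657, 1068, 1565 and 1100. Adult control replicate 3 was level with the highest E13.5 library, and the other 2 controls lay well above it. The adult control mean of 1430 ± 640 (SD, n = 3) was 2.27-fold the E13.5 mean of 631 ± 85.7 (SD, n = 3). The log2 fold change between adult control and E13.5 was 1.07 ± 0.36 (SE, limma adjusted p = 0.0266), and between MS-275 and E13.5 it was 1.07 ± 0.33 (SE, limma adjusted p = 0.0153). The first call was lost without E13.5 replicate 1 or 2 or adult control replicate 1 or 2 (limma adjusted p = 0.081, 0.063, 0.093 and 0.109), and the second without E13.5 replicate 1 (limma adjusted p = 0.0576). Averaging close library pairs lost both calls, the first at limma adjusted p = 0.214. The first was also lost with only the 2 groups in the fit (limma adjusted p = 0.0563), and the second with MS-275 replicates 2 and 4 alone. MS-275 and adult control differed by 0.01 ± 0.33 (SE, limma adjusted p = 1), with 0.60 in set a and −0.14 in set b. Bcl2l13 overlaps Bid on the opposite strand.

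Bcl2l11 (plus strand, chr2:128126038-128162547) encodes BIM, which is held down by growth factor signalling through ERK and is a known FOXO target. Its normalized count was 636, 666 and 793 in E13.5, 1048, 1306 and 614 in adult control, 272 and 585 after Wnt3a, and 484, 772, 634 and 899 after MS-275. No comparison called it. Both Wnt3a libraries lay below the 3 adult control libraries, with a log2 fold change of −1.24 ± 0.39 (SE) and an unadjusted p of 0.00831 that became a limma adjusted p = 0.575. The difference was −2.10 within set b and −0.07 within set a. After MS-275 the difference was −0.47 ± 0.32 (SE, limma adjusted p = 0.239), at 0.44 in set a and −1.08 in set b.

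Bbc3 (plus strand, chr7:16308393-16318205) encodes PUMA, a p53 target that binds all of the anti-apoptotic proteins. Its normalized count was 259, 619 and 585 in E13.5, 321, 313 and 97.6 in adult control, 242 and 71.6 after Wnt3a, and 154, 209, 212 and 293 after MS-275. The groups overlapped in all 4 comparisons, and the highest adult control library was 3.29-fold the lowest. The log2 fold change was −1.08 ± 0.56 between adult control and E13.5 (SE, limma adjusted p = 0.131) and −1.10 ± 0.53 between MS-275 and E13.5 (SE, limma adjusted p = 0.0891). The latter passed in 3 of 22 alternatives. These were the fit without E13.5 replicate 1, the lowest of its group, at −1.50 (limma adjusted p = 0.0447), the fit of only the 2 groups compared, and DESeq2 on the recovered reads. MS-275 and adult control differed by −0.02 ± 0.53 (SE, limma adjusted p = 0.994), and the sets went opposite ways, 1.33 in set a and −0.81 in set b.

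Pmaip1 encodes NOXA, a BH3-only protein that binds MCL1 and hastens its destruction. It was at 1593, 1685 and 1567 in the 3 E13.5 libraries (1615 ± 61.9, SD, n = 3) and at 0 in all 9 adult libraries, whether control, Wnt3a-treated or MS-275-treated. No read was assigned to it in any adult library. With a floor of 3 reads per library, which covers counting error only, its level was at least 530-fold higher in E13.5 than in adult control, 387-fold than after Wnt3a and 426-fold than after MS-275. It entered the test through the E13.5 libraries alone, so its call as lower in both comparisons with E13.5 was bound to follow and is given as a description. Sox2 showed the same on and off split between E13.5 and the adult libraries, and the part of the differing cell markers in the Pmaip1 result was not tested. Within E13.5 the ratio of Mcl1 to Pmaip1 in normalized counts, not per length, was 2.91 to 3.37.

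Bmf (minus strand, chr2:118528757-118549687) encodes a BH3-only protein that in other cells is tethered to the cytoskeleton and released on loss of attachment. Per kilobase it was the least abundant member in the adult groups apart from Pmaip1. Its normalized count was 32.1, 50.8 and 28.6 in adult control and 13.9 and 33.4 after Wnt3a. The E13.5 libraries had 81.1, 83.2 and 61.1, and the MS-275 libraries 114, 315, 170 and 284. Every MS-275 library lay above each of the other 8. The MS-275 mean of 221 ± 94.5 (SD, n = 4) was 5.94-fold the adult control mean of 37.2 ± 11.96 (SD, n = 3), with a log2 fold change of 2.47 ± 0.43 (SE, limma adjusted p = 0.00063). It was 3.34 in set a and 1.76 in set b. Bmf was called higher in all 22 alternatives, from 1.92 to 3.02. Against E13.5 the rise was 1.44 ± 0.43 (SE, limma adjusted p = 0.012). That call was lost with MS-275 replicates 1 and 3 alone, at 0.89 (limma adjusted p = 0.121). The difference of −1.03 ± 0.46 (SE) between adult control and E13.5 was not called (limma adjusted p = 0.0811) although the libraries did not overlap, and it changed sign under quantile normalization, to 1.22 (limma adjusted p = 0.0431).

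The Wnt3a comparison asked whether the ligand moved the family in adult cultures. limma called 0 of the 10 members and 0 of all genes, and edgeR and DESeq2 on the recovered reads called 0 members too. At an unadjusted p under 0.05, limma had 2 members, Bax and Bcl2l11, and 1311 of all genes (8.48%). Both Wnt3a libraries had less Bax than any control, with a log2 fold change of −0.49 ± 0.17 (SE, limma adjusted p = 0.575), at −0.10 in set a and −0.73 in set b. Without adult control replicate 3, Bax at −0.66 and Bcl2l11 at −1.55 passed (limma adjusted p = 0.017 and 0.0285). Of the 15418 genes tested in that fit, 953 were called higher and 501 lower, so the calls were not particular to these members. That fit compared 2 set b controls with 1 Wnt3a library of each set. The sets also differed for Bmf, at 0.22 in set a and −1.48 in set b, for Bid, at −0.01 and −0.53, and for Bcl2l1, at 0.19 and 0.84. The standard errors of the members in this comparison ran from 0.13 (Mcl1) to 0.63 (Bbc3) on the log2 scale, apart from Pmaip1, which sets how large a change could have passed.

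The sizes of the MS-275 changes are to be read beside the markers that moved with them. The 12 endothelial markers summed to 19780 to 35473 after MS-275 and 243360 to 326235 in adult control, neuronal markers to 667 to 736 and 3.47 to 4.07, and pericyte and smooth muscle markers to 716 to 956 and 86.7 to 116. After MS-275 only 2 of the 8 neuronal genes averaged at least 100, and 4 of the 8 pericyte and smooth muscle genes. Of the latter, Des was at 299 to 525 against 0 in adult control, and Acta2 at 5.05 to 16.2 against 7.89 to 15.6. Sox2 and Dcx stayed at 0 in every adult library. The part of these shifts in the changes of Bax, Bak1, Bcl2, Bcl2l1 and Bmf was not tested.

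Ratios within a library do not depend on the scaling between libraries, and were taken as a description with no test. They are ratios of normalized counts and not per length, so they compare libraries and not the levels of the 2 genes. The ratio of Bcl2 to Bax, long used as a simple measure of the balance in the pathway, was 0.232, 0.321 and 0.347 in E13.5 and 0.441, 0.391 and 0.763 in adult control. It was 0.607 and 0.909 after Wnt3a and 0.683, 0.939, 0.531 and 0.887 after MS-275. It was above the E13.5 range in all 9 adult libraries, and adult control replicate 3 lay inside the MS-275 range. The ratio of Bcl2l1 to Bax was 1.36, 1.31 and 1.37 in E13.5 and 0.706, 0.698 and 0.765 in adult control, with replicates of each group close together. After MS-275 it spread over 1.66, 0.654, 1.30 and 0.577, which reached beyond both of those groups.

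The ratio of Mcl1 to Bax, chosen after its values were seen, separated the MS-275 libraries from the other 8. It was 1.49, 1.40 and 1.44 in E13.5, 1.90, 1.89 and 2.55 in adult control, 3.02 and 2.62 after Wnt3a, and 6.78, 6.80, 7.18 and 6.29 after MS-275. The 4 MS-275 values lay close together across both sets of libraries. The ratio of Bcl2l1 to Bcl2l11 was 7.74, 6.88 and 5.75 in E13.5 and 2.92, 2.34 and 3.86 in adult control. It reached 20.1 and 4.62 after Wnt3a, and was 4.85, 1.01, 2.82 and 0.917 after MS-275, so replicates 2 and 4 of MS-275, both of set a, had the lowest values of the 12 libraries.

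**Figure D3:**
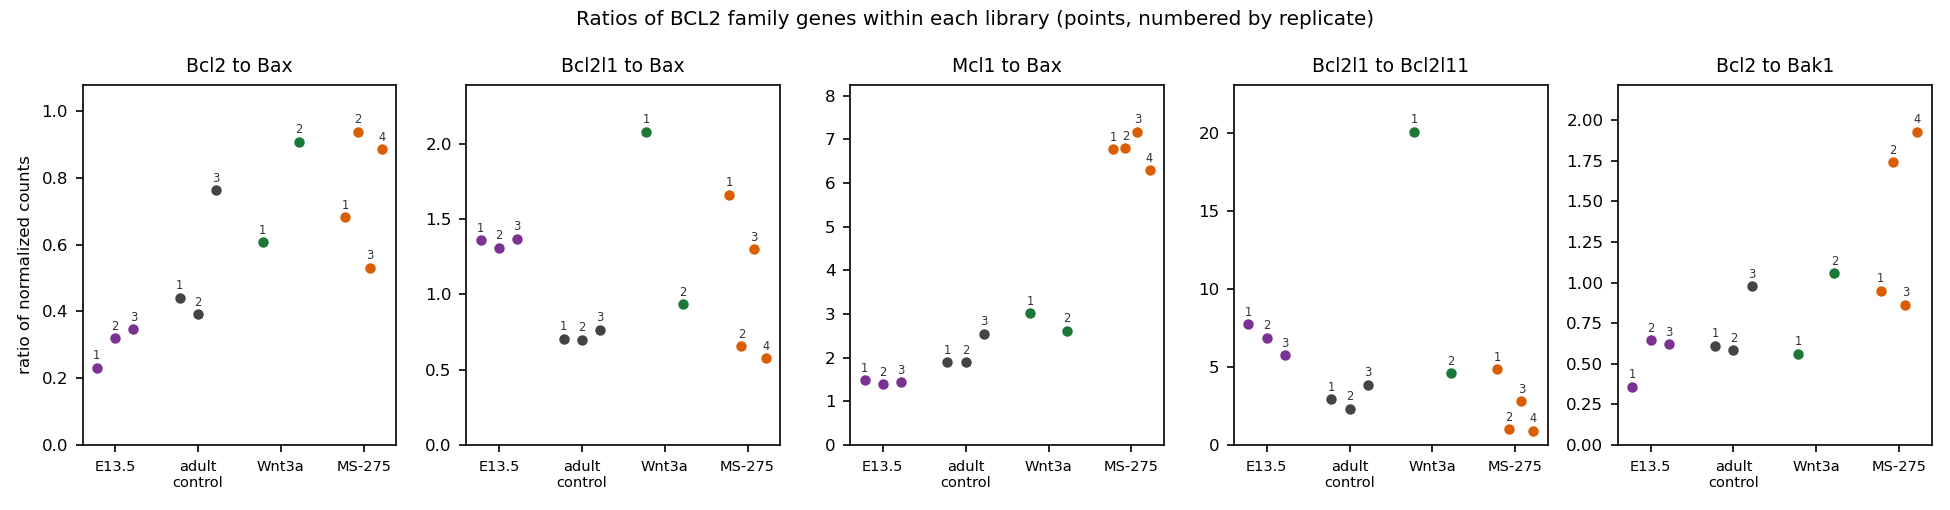
Ratio of normalized counts of 2 members within each library (vertical axes, linear, from 0), with points numbered by replicate. The Mcl1 to Bax ratio is 6.29 to 7.18 in the 4 MS-275 libraries and at most 3.02 elsewhere, while the Bcl2l1 ratios spread widely among the MS-275 and the Wnt3a libraries.

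Levels of different genes were compared per kilobase of exon, as the group mean of the normalized count divided by the union exon length. In adult control the order was Bax at 2499, Mcl1 at 2381, Bak1 at 1173, Bcl2l1 at 617, Bid at 403, Bcl2 at 218, Bcl2l11 at 123, Bbc3 at 115, Bmf at 7.08 and Pmaip1 at 0. Bax ranged over 1964 to 2785 there and Mcl1 over 2306 to 2429, so by this length these neighbours did not differ beyond their spread. Neither did Bid (202 to 550) and Bcl2 (187 to 258) or Bcl2l11 and Bbc3. In E13.5 Bax (2208) and Mcl1 (1470) were followed by Bcl2l1 (1022), Bak1 (821) and Pmaip1 (591). After MS-275 Mcl1 stood alone at 2674, and Bax (859), Bid (380), Bak1 (328) and Bcl2l1 (313) came next, the last 3 with overlapping ranges. With the longest coding transcript as the length, Bcl2l1 moved from rank 3 to 2 in E13.5 and from 5 to 4 after MS-275, while Bmf kept rank 9 in the adult groups. By that length Bax was at 3581 and Mcl1 at 2381 in adult control, a wider gap than by union exon length. After Wnt3a Mcl1 led by union exon length and Bax by the longest coding transcript.

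**Figure D4:**
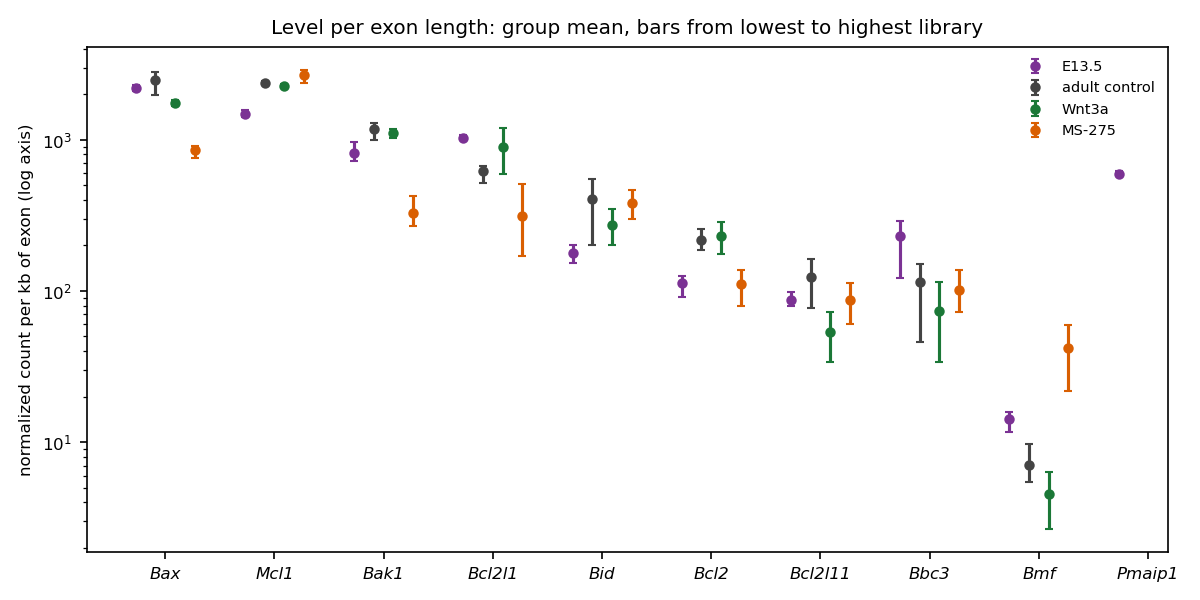
Normalized count per kilobase of union exon length (vertical axis, logarithmic) for each member, with points at the group mean and bars from the lowest to the highest library. Bax, Mcl1 and Bak1 lead in adult control and Mcl1 leads after MS-275, and Pmaip1 has no point in the adult groups because a 0 cannot be drawn on this axis.

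Further genes of the pathway were read from lists, each described by its counts, and names outside the rule for named genes were added after their values were seen. Beside these counts stand the shares of all genes tested, 19.5% higher and 32.8% lower between adult control and E13.5 and 30.3% and 22.7% after MS-275. Of 15 other BCL2 family genes 10 were tested. After MS-275, 3 rose and 2 fell: Bnip3, a mitophagy receptor, went from 401 ± 79.6 (SD, n = 3) to 1523 ± 667 (SD, n = 4; limma adjusted p = 0.0104), Bcl2l13 and Bnip3l rose too, Bad fell, and Bcl2l2, which encodes the anti-apoptotic BCL-W, fell from 927 ± 222 to 473 ± 97.5 (limma adjusted p = 0.00269). Between adult control and E13.5, 2 were higher (Bad and Bnip3l) and 3 lower (Hrk, Bcl2a1b and Bok), of which Hrk and Bcl2a1b reached the filter through E13.5 alone and so had to come out lower. Hrk, a BH3-only gene known from neurons, was at 92.3 ± 58.8 (SD, n = 3) in E13.5 and at 0 in adult control, as Pmaip1 was, while Bad, a BH3-only gene governed by survival kinases, was higher in the adult at 926 ± 128 against 517 ± 86.7 (SD, n = 3 each, limma adjusted p = 0.0017). Bcl2a1b was also called lower in the adult, at 0.657 against 16.6, but it shares reads with near-identical copies and its count is uncertain.

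Downstream of the pore, 14 genes of mitochondrial death effectors and caspases were tested, of which 4 rose (Diablo, Cycs, Dffa and Casp9) and 5 fell after MS-275, among them Dffb, Apaf1, Htra2 and Vdac2. Diablo encodes SMAC, which is released from mitochondria and disables inhibitors of apoptosis. It rose from 496 ± 68.9 (SD, n = 3) to 2801 ± 768 (SD, n = 4), a log2 fold change of 2.46 ± 0.21 (SE, limma adjusted p = 6.21e-06). Cycs, which encodes cytochrome c, rose by 0.87 on the log2 scale (limma adjusted p = 0.000201), and Dffb, the nuclease that cuts DNA in apoptosis, went from 78.8 to 14.2 (limma adjusted p = 0.000177). Between adult control and E13.5, 1 of the 14 was higher (Aifm1, 1.07 on the log2 scale, limma adjusted p = 7.31e-05) and 3 were lower (Diablo, Dffb and Endog). Of 5 inhibitors of apoptosis, 2 were higher in adult control than in E13.5 (Birc3 and Xiap, by 0.95 and 0.66 on the log2 scale). After MS-275 2 fell, Xiap by 0.69 and Birc5, which is also a mitotic gene, by 2.14 on the log2 scale (limma adjusted p = 0.0242 and 0.00253).

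The death receptor list had 11 genes tested. In adult control 7 were higher and 2 lower than in E13.5, with a list median of 1.20 beside −0.20 over all genes. Tradd and Ripk1, adaptors of TNF receptor signalling, were higher by 1.75 and 1.27 on the log2 scale (limma adjusted p = 5.89e-05 and 6.79e-05), and Tnfrsf21 was lower at 83.9 against 1941, as was Fas at 83.1 against 712. After MS-275 3 rose (Fas, Tnfrsf21 and Tradd) and 6 fell, with a list median of −0.93 beside 0.19. Fas, the receptor for FAS ligand, went from 83.1 ± 94.5 (SD, n = 3) to 664 ± 280 (SD, n = 4), a log2 fold change of 3.49 ± 0.63 (SE, limma adjusted p = 0.000801). Its adaptor Fadd went the other way, from 471 ± 96.8 to 112 ± 55.4 (limma adjusted p = 0.000218), and Tnfrsf1a fell by 1.39 on the log2 scale (limma adjusted p = 4.85e-05).

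Of 11 transcription factors known to act on BCL2 family genes, 10 were tested. After MS-275, 1 rose (Ddit3) and 4 fell (Trp53, Nfkb1, E2f1 and Rela), beside 30.3% and 22.7% of all genes. Trp53, which is known to activate Bax, Bbc3 and Pmaip1, went from 2926 ± 1008 (SD, n = 3) to 797 ± 112 (SD, n = 4; limma adjusted p = 0.000128). Nfkb1 went from 2351 ± 33.0 to 435 ± 77.7 (limma adjusted p = 2.54e-06) and E2f1 from 693 to 196 (limma adjusted p = 0.00586). Between adult control and E13.5, Foxo1 was higher, with a log2 fold change of 1.28 (limma adjusted p = 0.00214), and Foxo3 lower, with −1.80 (limma adjusted p = 1.24e-06). Nfkb1 was the other factor called higher and Jun the other called lower. None of the 5 regulators of MCL1 turnover was called in any of the 4 comparisons, with Usp9x, which stabilizes MCL1, nearest at 0.73 after MS-275 (limma adjusted p = 0.0519). Wnt3a moved 0 genes past the threshold in each of the 6 lists. Between MS-275 and E13.5 the counts of higher and lower genes were 1 and 5 for the other BCL2 family genes, 4 and 3 for effectors and caspases, 0 and 1 for inhibitors of apoptosis, 3 and 2 for death receptors and 2 and 5 for the transcription factors. The shares of all genes there were 27.2% higher and 36.1% lower, and nothing particular to these lists is read from the counts.

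The genes whose pattern was most like that of the 3 members with the largest MS-275 changes were ranked by the mean absolute difference of centred log2 levels over the 12 libraries, as a description. Nearest to Bax were its overlapping neighbour Gm45808 at 0.05, Ldb1 at 0.06 and Trim28 at 0.10. Nearest to Bak1 were Grk2 at 0.10, Ctbp1 at 0.11 and the overlapping Ggnbp1 at 0.13. Bmf had no partner as close, with Gpr4 at 0.24 and the paralogs Gstp1 at 0.27 and Gstp2 at 0.28. Grk2 was at 2340 in E13.5, 3430 in adult control, 3130 after Wnt3a and 1020 after MS-275, beside 1976, 2824, 2659 and 790 for Bak1.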

How the data were processed

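mRNA of 12 cultures was sequenced. After trimming with cutadapt the authors used STAR to align reads to mm10 and counted those on protein-coding genes of GENCODE M23 (in-house scripts in the methods, featureCounts in the processing notes). Neither tool versions nor the strand setting are given in the sources used here. Deposited signal values were normalized counts: the authors divided each library's counts by a DESeq2 size factor. Of 21638 names, 26 turned into dates and 1 with a missing value were left out, and 21611 remained. All values came back as whole reads (100% within 0.01 reads).

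Positions are from GENCODE M21 on mm10. log2(normalized count + 1) of all 12 libraries entered a single limma 3.58.1 model (R 4.3.3; trend, robust) with group as the factor. A gene was tested if 2 or more libraries reached a value of 10, with Benjamini-Hochberg adjustment over all of them and a threshold of 0.05. edgeR 4.0.16 and DESeq2 1.42.0 on the recovered reads, other pseudocounts, filters and scalings, left-out libraries and a replicate block were alternatives. The fit was also run on simulated counts, drawn independently for each library. These held no close pairs and no sets, so that run does not bear on the p-values given here. All 10 members are named, and from each other list up to 3 genes with the smallest adjusted p per comparison (MS-275 against E13.5 apart). The members and lists were chosen with earlier results of these data known. p-values measure the spread between libraries, each counted as a separate culture. Within groups some pairs of libraries were far closer than others, and whether such pairs are independent cultures was not tested. Correlations between same-numbered libraries of different groups ran from −0.442 to 0.441, so replicate numbers do not pair libraries. Sets a and b were read from the first principal component of the deviations after the data were seen. For the fit with library set as a factor, each E13.5 library was also assigned by the sign of its score.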

Additional observations from a re-analysis of the deposited data

How the results depend on the processing

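Of the member counts, those between MS-275 and E13.5 kept within 1.5 times the 7 called in every alternative, with 7 called whichever library was left out. The members were not always the same: without E13.5 replicate 1 the Bid call was lost and a Bbc3 call was gained. With close library pairs averaged, 2361 of 14983 genes were higher and 3689 lower there, beside 4204 and 5571 of 15452 in the main fit. Between adult control and E13.5 the 5 calls became 3 when close library pairs were averaged and ranged from 3 to 6 when 1 library was left out. Calls over all genes fell too with pairs averaged, from 3008 higher and 5066 lower of 15452 to 1495 and 3282 of 14983. With 1 library left out they ran from 2380 to 3274 higher and 4177 to 5455 lower. Between MS-275 and adult control the 5 calls became 3 with close pairs averaged and ranged from 4 to 5 when 1 library was left out. Over all genes, averaging took the calls from 4677 higher and 3515 lower to 2156 and 1738. With 1 library left out they ran from 3772 to 4912 higher and 2935 to 3692 lower. For Wnt3a against adult control the count was 0, and 0 to 2 when 1 adult control library was left out. The 2 calls came without adult control replicate 3, where 953 of 15418 genes were called higher and 501 lower. Leaving Pmaip1 aside, whose call against E13.5 the filter fixed, the members called in every alternative were Bcl2 and Mcl1 between adult control and E13.5, Bax, Bak1 and Bmf between MS-275 and adult control, and Bcl2l1, Mcl1, Bax and Bak1 between MS-275 and E13.5. With a replicate block the counts were 6, 0, 5 and 7 for adult control against E13.5, Wnt3a and MS-275 against adult control, and MS-275 against E13.5, and the added call was Bmf. Bmf between adult control and E13.5 turned from −1.03 to 1.22 under quantile normalization, where Pmaip1, at 0 reads in both groups, was also called between MS-275 and adult control at −0.91. With no read in either group, that Pmaip1 value is a product of the scaling and not a difference in reads. The cause of the Bmf change of sign was not tested. Quantile normalization moved the median of all genes by 0.34 between adult control and E13.5, −0.18 after MS-275 and 0.35 between MS-275 and E13.5, and scaling to the same total by −0.13, 0.04 and −0.10. DESeq2 called 29 genes higher and 12 lower after Wnt3a, and edgeR 0. Of 808 member values with a test under the alternatives, 770 stayed on their side of the threshold, 26 lost the call, 11 gained one and 1 reversed. Of the 770, 36 changed sign, all of them values that were not called. Of 36 within-set values, which have no test, 16 moved by more than the replicate spread.

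Counting was least precise for Bmf (10 to 288 reads per library) and Bbc3 (60 to 714), and the other members apart from Pmaip1 had at least 196 reads in every library. Pairs of replicates were unequally close: chi-square per gene was 5.07 between E13.5 replicates 2 and 3 and 6.97 between MS-275 replicates 2 and 4, and 209.7 between the Wnt3a libraries.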

Other observations

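Beyond the genes the rule named, several partners of the family changed after MS-275 and were chosen here after their values were seen. Casp8, the initiator caspase that cuts BID, was at 212 to 843 in the MS-275 libraries and 2090 to 2280 in adult control (−2.44 ± 0.44, SE, limma adjusted p = 0.000869). Dffa, which encodes the inhibitor of the DFFB nuclease, was at 640 to 1270 and 244 to 353 (1.63 ± 0.27, SE, limma adjusted p = 0.000418), opposite to Dffb. Ddit3, which encodes the stress factor CHOP and is known to act on Bcl2l11 and Bbc3 in other cells, was at 2630 to 7900 and 377 to 1090 (2.54 ± 0.64, SE, limma adjusted p = 0.00612). Bcl2l11 and Bbc3 were not called in that comparison and each had opposite signs in sets a and b. Any link of the 2 genes to Ddit3 was not tested.

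In E13.5 the initiator Casp8 had a normalized count of 399 to 727, against 2090 to 2280 in adult control (2.08 ± 0.48, SE, limma adjusted p = 0.00336), and Cflar, which encodes the caspase-8 inhibitor FLIP, 3000 to 3390 against 7090 to 7630 (1.20 ± 0.37, SE, limma adjusted p = 0.018). As with every difference from E13.5, the endothelial markers differed between the same libraries, and their part was not tested.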
